A study of Mus musculus with 8 samples.

Results

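The sphingosine-1-phosphate receptors are the 5 genes S1pr1, S1pr2, S1pr3, S1pr4 and S1pr5, taken by symbol from a table of 56748 genes. They were picked because S1pr5 was lower in every library of the Olfr2 knockout (KO), so that the KO minus wild-type (WT) values of the receptors are given below as a description, with no test. The cells were classical, inflammatory Ly6Chigh monocytes of the mouse, sorted from spleen at day 7 after an aneurysm was induced in WT and Olfr2 KO mice. There were 4 WT and 4 KO libraries, and both genotypes had the induction, so that no library shows monocytes without it. The labels give neither the age, sex and strain of the mice, nor the Olfr2 allele, nor the way of induction, nor whether each library came from a separate animal; p-values therefore measure the spread between these libraries. The study asks about the part that Olfr2, an olfactory receptor gene, plays in monocyte recruitment to abdominal aortic aneurysm.

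Sphingosine-1-phosphate (S1P) is a lipid signal that is plentiful in blood and lymph and scarce inside tissues, and its receptors are G protein-coupled receptors that let leukocytes sense this gradient when they leave an organ. S1pr1 encodes the receptor that lymphocytes use to leave lymphoid organs and that endothelium uses to keep its barrier. S1pr2 encodes a receptor that restrains cell movement through the G proteins of the Gna12 and Gna13 genes, S1pr3 one found in vessels and heart, S1pr4 one found in blood leukocytes, and S1pr5 one known for the exit of natural killer (NK) cells and nonclassical, patrolling monocytes from the bone marrow.

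Total counts lay between 16111725 and 21728794 per library. Levels are given as CPM, the count divided by the library total and multiplied by 1000000. A gene with no count in a library could still lie below a floor of 3 counts, 0.138 to 0.186 CPM; floors and intervals cover counting error only, since reads copied by PCR are not independent molecules. Olfr2 had 0 counts in all 8 libraries, so that its RNA could not check the genotype labels. Classical monocyte markers were plentiful, with a summed level of 122503 to 131889 CPM in WT and 139154 to 164454 CPM in KO, which did not overlap. The largest part of the sum was Lyz2, at 108307 ± 4609 CPM in WT and 112989 ± 5847 CPM in KO, whose own values overlapped. Chil3 came next, at 11023 ± 2557 CPM in WT and 27431 ± 11175 CPM in KO. Of the 10 listed markers 0 passed the test of KO against WT described below. The Ly6c2 gene stood at 4696 ± 499 CPM in WT libraries and 5039 ± 573 CPM in KO libraries (SD, 4 each). In the table, columns of replicates 1 and 2 carry numbers from 1600 upward and those of replicates 3 and 4 numbers from 1700 upward, in WT and KO alike. What the numbers stand for is not stated; these number series are called 1600 and 1700 below and values are given within each.

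S1pr5 and S1pr2 lie on the minus strand of chromosome 9 in build GRCm38, at 21242912 to 21248443 and at 20962361 to 20976781, with 266130 bases and 13 protein-coding genes between them, among them Icam1, Tyk2 and Keap1. S1pr1 is on chromosome 3 (115710433 to 115715072, minus strand), S1pr3 on chromosome 13 (51408639 to 51422797, plus strand) and S1pr4 on chromosome 10 (81497747 to 81500132, minus strand). All 5 are protein-coding. The coding sequences of S1pr4 and S1pr5 were identical at 60.7% of aligned bases, those of S1pr2 and S1pr5 at 59.1%, and the 10 pairs ranged from 53.7% (S1pr3 and S1pr5) to 64.1% (S1pr1 and S1pr3). Of the stretches of 50 bases in their transcripts, 0% (S1pr1 and S1pr3) to 1.24% (S1pr4) also occurred in a transcript of another gene. Only exact matches to annotated transcripts were counted, so that reads shared through mismatches or unannotated copies are not covered. S1pr5 exons overlap those of Gm48303, a gene model on the opposite strand, by 51 bases; that model had 7 counts over the 8 libraries against 1119 for S1pr5.

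The 250 bases before the annotated start are printed for S1pr5 and S1pr2, the receptors with the most counts. RefSeq's promoter table for GRCm38 held 4 of the 5 receptors. Capitals mark matches, on either strand, to CACCC (the core bound by KLF factors such as Klf2, an activator of S1pr1 in lymphocytes), GGGCGG (bound by SP factors) and TGACGTCA (bound by CREB-type factors); no 2 matches overlap.
S1pr5, chr9:21248444-21248693, minus strand: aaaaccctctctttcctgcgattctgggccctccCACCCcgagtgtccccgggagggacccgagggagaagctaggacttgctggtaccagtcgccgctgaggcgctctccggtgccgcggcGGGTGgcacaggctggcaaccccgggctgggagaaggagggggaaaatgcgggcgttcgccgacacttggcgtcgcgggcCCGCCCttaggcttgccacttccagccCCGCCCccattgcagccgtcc
S1pr2, chr9:20976794-20977043, minus strand: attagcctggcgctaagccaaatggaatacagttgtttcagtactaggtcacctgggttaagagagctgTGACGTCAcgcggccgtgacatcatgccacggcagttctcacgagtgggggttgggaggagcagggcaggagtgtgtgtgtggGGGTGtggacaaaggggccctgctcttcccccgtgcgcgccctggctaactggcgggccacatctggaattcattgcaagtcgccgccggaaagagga
The S1pr5 window held 2 matches to CACCC and 2 to GGGCGG, and the S1pr2 window 1 match to CACCC and 1 to TGACGTCA. Over 32851 promoter windows of this length, 52.0% held CACCC, 32.7% GGGCGG and 1.5% TGACGTCA. The letters AGGTGTNA, a site of T-box factors such as Tbx21, were found in 2.7% of windows and not in these.

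S1pr5 and S1pr2 stood highest among the receptors per length, S1pr4 lower, and S1pr1 and S1pr3 were at or near 0 counts. Levels between genes were compared as RPKM, the CPM divided by the length of the gene's exons in kilobases. Over the 8 libraries S1pr5 had 2.99 ± 1.03 RPKM, S1pr2 2.80 ± 0.779 and S1pr4 0.863 ± 0.379 (SD, n = 8), against 0.0233 ± 0.0253 for S1pr1 and 0.00988 ± 0.00939 for S1pr3. In WT, 56.3% of the 11222 genes that passed the filter on low counts had a lower RPKM than S1pr5, 52.8% a lower one than S1pr2 and 32.1% a lower one than S1pr4. S1pr5 and S1pr2 were thus mid-ranking transcripts, and S1pr4 ranked lower. S1pr1 and S1pr3 did not pass the filter.

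Neighbours in this order were compared within each library on the log2(RPKM + 0.01) scale by an exact two-sided sign-flip permutation test, adjusted over the 4 pairs (Benjamini-Hochberg). The order was itself ranked from these 8 libraries, and the KO values of S1pr5 had been used to pick the family. S1pr4 passed the filter and S1pr1 failed it, so that the outcome for this pair was largely set in advance. S1pr2 lay above S1pr4 in 8 of 8 libraries, by 1.76 ± 0.89 (SD, n = 8; exact adjusted p = 0.0156), and S1pr4 above S1pr1 in 8 of 8, by 5.00 ± 1.22 (exact adjusted p = 0.0156, from the smallest p that 8 libraries allow, 0.00781). With S1pr1 this close to 0 the size of the step rests on the added constant: with 0.1 in place of 0.01 it was 2.89. S1pr5 lay above S1pr2 in 5 of 8 libraries, 3 WT and 2 KO, a mean difference of 0.06 ± 0.44 with an exact adjusted p of 0.703, and their order turned when the longest transcript replaced the exon union as length (-0.25). S1pr1 and S1pr3 differed by 0.49 ± 1.49 (exact adjusted p = 0.458).

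**Figure D1:**
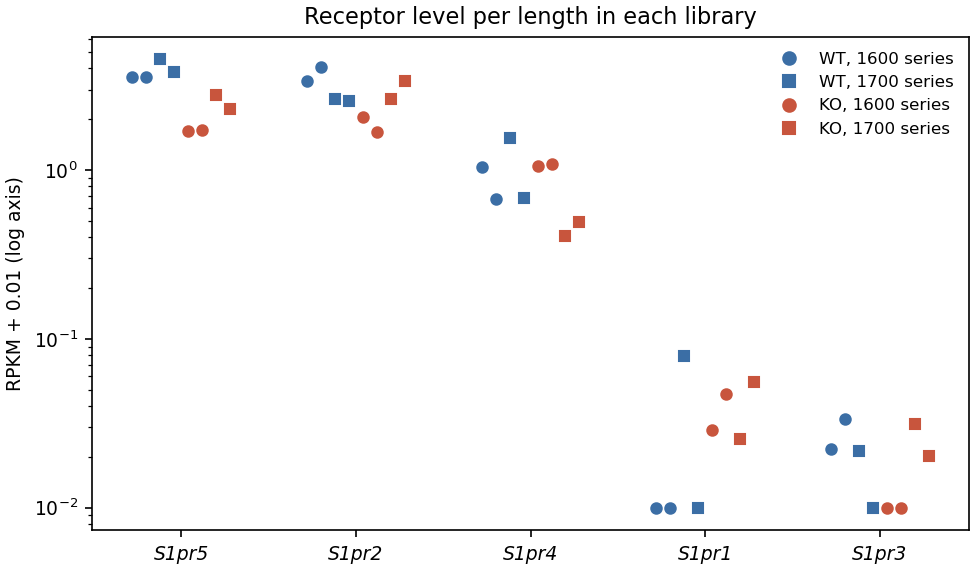
Level of each receptor in each library as RPKM + 0.01 on a log axis, WT in blue and KO in red, circles for the 1600 and squares for the 1700 number series. S1pr5 and S1pr2 overlap at the top (1.69 to 4.53 and 1.66 to 4.08 RPKM), S1pr4 lies between 0.397 and 1.54 RPKM, and S1pr1 and S1pr3 reach at most 0.0691 and 0.0235 RPKM.

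S1pr5 was lower in each of the 4 KO libraries than in each of the 4 WT libraries, which is how the family came to be picked. Its levels were 8.88, 8.82, 11.3 and 9.56 CPM in WT 1 to 4 and 4.23, 4.32, 6.91 and 5.71 CPM in KO 1 to 4, from 73 to 215 counts a library. The groups did not overlap: the lowest WT value was 8.82 CPM (WT 2) and the highest KO value 6.91 CPM (KO 3). Of all tested genes, 8.66% had every KO library below every WT library, and 2.81% had every KO library above. Mean and SD over 4 libraries were 9.64 ± 1.17 CPM for WT and 5.29 ± 1.27 CPM for KO, and edgeR gave a log2 change of -0.80 ± 0.20 (SE). In bulk RNA, fewer cells with the transcript and less of it per cell cannot be told apart. The log2 change was -0.89 ± 0.25 within the 1600 series and -0.75 ± 0.25 within the 1700 series, which sit close to each other. Within each genotype the 1700 series lay higher: both KO libraries of that series were above both of the 1600 series, and so were both WT libraries.

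S1pr2 had the most counts of the family, 233 to 620 a library, and its genotypes overlapped. It stood at 26.9, 32.5, 21.003 and 20.5 CPM in WT 1 to 4 and at 16.5, 13.2, 20.97 and 26.8 CPM in KO 1 to 4. The highest value was in WT 2 and the lowest in KO 2, while KO 4 was above 2 of the 4 WT libraries and close to WT 1. Mean and SD over 4 libraries were 25.2 ± 5.68 CPM for WT and 19.4 ± 5.90 CPM for KO, and edgeR gave a log2 change of -0.31 ± 0.20 (SE). Within the 1600 series the log2 change was -0.84 ± 0.20, and within the 1700 series 0.18 ± 0.21.

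S1pr4 was scarce, at 20 to 70 counts a library, and again the genotypes overlapped. Its levels were 2.45, 1.57, 3.68 and 1.61 CPM in WT and 2.49, 2.56, 0.947 and 1.15 CPM in KO. WT 3 was highest, and the KO libraries split by series, with KO 3 and KO 4 the lowest of all 8. Mean and SD over 4 libraries were 2.33 ± 0.989 CPM for WT and 1.79 ± 0.856 CPM for KO, and edgeR gave a log2 change of -0.32 ± 0.40 (SE). Within the 1600 series it was 0.48 ± 0.39, and within the 1700 series -1.37 ± 0.47. Without WT 3 the change over all libraries was 0.03, and without KO 1 and KO 2 it was -1.11.

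S1pr1 and S1pr3 were not quantifiable at this depth. S1pr1 had 0, 0, 4 and 0 counts in WT 1 to 4 and 1, 2, 1 and 3 counts in KO 1 to 4. S1pr3 had 1, 2, 1 and 0 counts in WT and 0, 0, 2 and 1 in KO. No fold change is given for either gene, since nearly every library is at or under 3 counts.

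**Figure D2:**
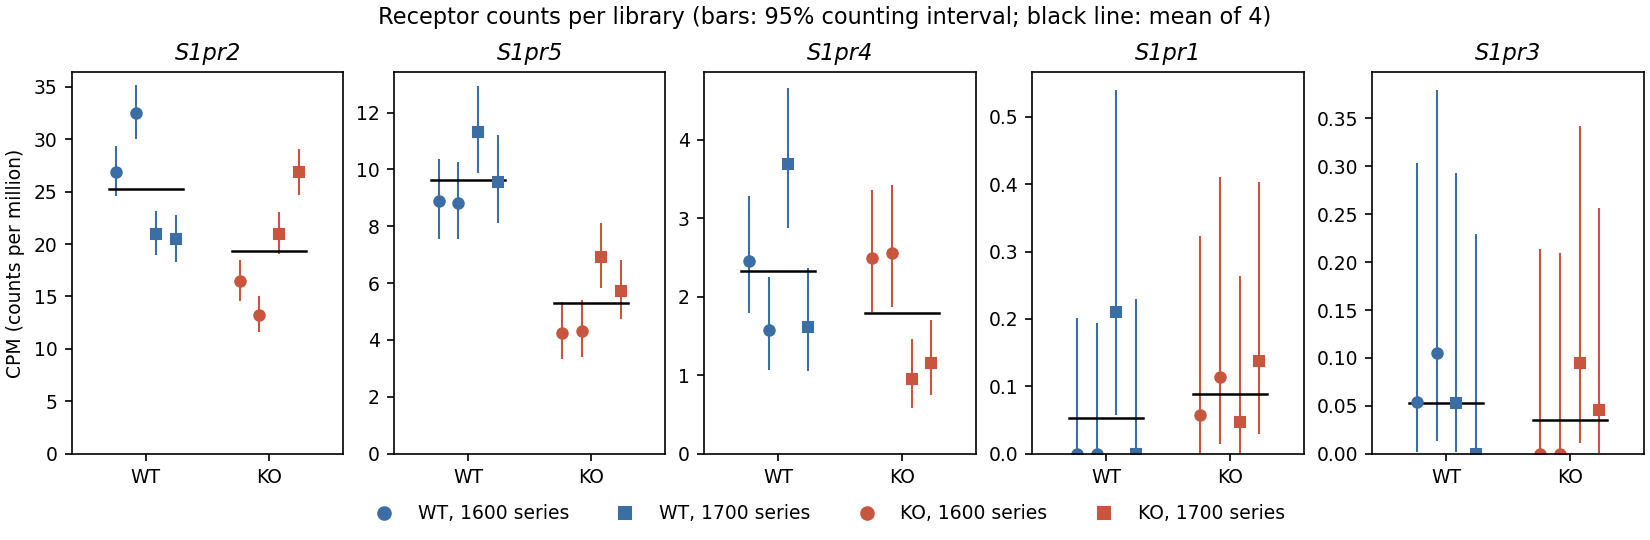
CPM of each receptor in each library, WT in blue and KO in red, with exact 95% counting intervals as bars and the mean of 4 as a black line; circles are the 1600 and squares the 1700 number series, and each panel has its own axis from 0. S1pr5 is the panel in which the 4 KO points (4.23 to 6.91) lie below the 4 WT points (8.82 to 11.3).

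The difference of the genotype effect between the number series was fitted as an interaction term over all genes, a choice made after these values were seen. For S1pr5 it was 0.12 ± 0.34 on the log2 scale, 1700 minus 1600 (SE, edgeR), given as a description, since S1pr5 was picked for being lower in every KO library of both series. For S1pr2 it was 1.02 ± 0.29 (edgeR adjusted p = 0.119) and for S1pr4 -1.87 ± 0.63 (edgeR adjusted p = 0.175). Neither passed, though 1806 genes, both receptors among them, had an unadjusted p under 0.05. In this test 0.784% of tested genes were called. The ratio of S1pr5 to S1pr2 counts, which does not depend on the scaling of a library, ran from 0.271 to 0.539 in WT and from 0.213 to 0.3296 in KO, so that it overlapped between genotypes.

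**Figure D3:**
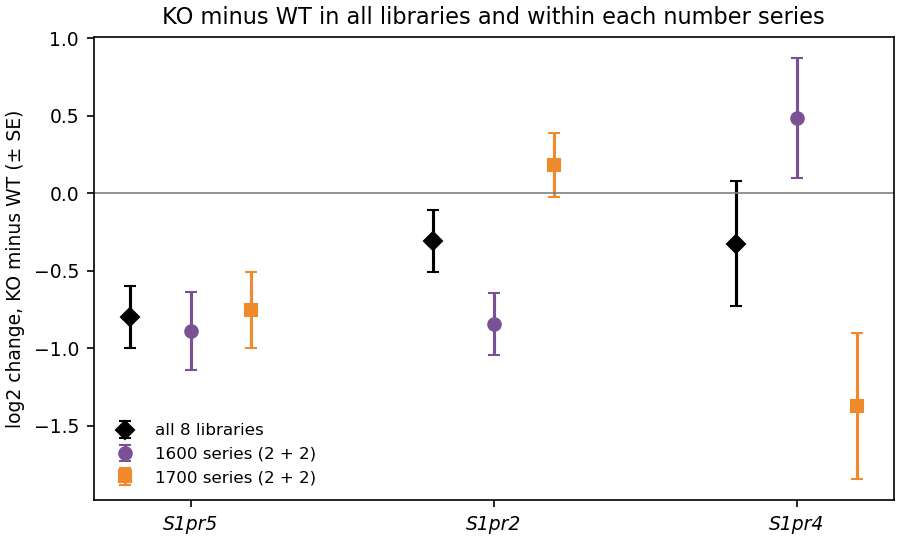
Log2 change, KO minus WT, with its SE (edgeR) for the 3 receptors that passed the filter, over all 8 libraries (black diamonds) and within the 1600 (purple circles) and 1700 series (orange squares), 2 libraries of each genotype in each. S1pr5 is at -0.80, -0.89 and -0.75, while S1pr2 (-0.84 and 0.18) and S1pr4 (0.48 and -1.37) take opposite signs in the series.

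Markers of other cells that carry S1P receptors were read beside these values. Defining NK cell genes were at or near 0: Ncr1, Klra8 and Klra4 had no count in any library, Eomes reached 0.0579 CPM and Tbx21 0.186 CPM, and 5 of 15 NK markers passed the filter. Their summed level was 11.1 to 21.8 CPM in WT and 9.83 to 18.0 CPM in KO. Nkg7, a granule gene on this list, rose from 0.443 ± 0.0522 CPM in WT to 1.61 ± 0.715 CPM in KO (SD over 4). Its edgeR adjusted p was 0.0433 and its sign opposite to that of S1pr5. Of the 5 tested NK markers 2 were positive and 3 negative (median log2 change -0.23). Klrk1 and Klrd1, the highest on the list, were at -0.45 ± 0.30 and -0.23 ± 0.33 (SE). Of T cell markers 0 of 10 passed the filter, with sums of 0.762 to 1.99 CPM over all libraries, and endothelial markers summed to 1.42 to 2.16 CPM, with Cdh5, Tek and Emcn at 0. B cell markers summed to 182 to 398 CPM in WT and 195 to 368 CPM in KO, which overlapped; Ighm averaged 255 ± 80.7 CPM in WT libraries and 241 ± 75.0 CPM in KO libraries, while Pax5 and Blk were at 0 in all libraries and 2 of 10 markers passed the filter.

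Nonclassical monocyte markers were present, and their summed level was lower in KO, as was the level of S1pr5. The sum was 2187 to 2554 CPM in WT and 1870 to 2110 CPM in KO, with no overlap. Its largest part was Gngt2, at 991 ± 123 CPM in WT and 862 ± 94.2 CPM in KO, whose own values overlapped between genotypes. Within KO the order of the sums differed from that of S1pr5, KO 1 having the highest sum and the lowest S1pr5. On this list 13 of 14 tested members had a negative log2 change (median -0.28, against -0.00 over all tested genes). Fcgr4 was the positive member, at 0.22 ± 0.62 (SE). Pou2f2, a transcription factor of this lineage, was the member that passed (edgeR adjusted p = 0.0170), falling from 1.91 ± 0.524 to 0.130 ± 0.0753 CPM (SD, n = 4 each). Among plasmacytoid dendritic cell markers the sum was 322 to 383 CPM in WT and 175 to 266 CPM in KO, while Siglech, which defines those cells, was at 0 in all libraries; Bst2, an interferon-induced gene on that list, fell from a mean of 207 ± 11.8 in WT to 121 ± 24.1 CPM in KO libraries (SD over 4), with an adjusted p of 0.0377 by edgeR. With WT 1, WT 3, KO 2 or KO 3 left out, each on its own, 0 genes passed in edgeR, so that the calls of Nkg7, Pou2f2 and Bst2 were lost, while 1704 to 2069 genes had an unadjusted p under 0.05. Neutrophil markers summed to 2093 CPM in KO 1 and 3076 CPM in KO 2, the KO libraries with the lowest S1pr5, against 570 to 755 CPM in KO 3 and KO 4 and 255 to 598 CPM in WT. Mmp8, the highest on the list, stood at 681 and 757 CPM in KO 1 and KO 2 against 224 to 555 CPM in WT. S100a8, the next, stood at 770 and 1463 CPM against 23.7 to 48.6 CPM in WT. Of the 10 neutrophil markers 3 passed the filter, and Ly6g reached at most 1.04 CPM. The sum of conventional dendritic cell markers was low in the same libraries, at 120 CPM in KO 1 and 89.8 CPM in KO 2. It was 511 to 556 CPM in KO 3 and KO 4 and 247 to 514 CPM in WT. Its largest part was Cd209a, at 67.6 and 47.3 CPM in KO 1 and KO 2 against 168 to 409 CPM in WT. In KO 1 and KO 2, Batf3 (16.3 and 12.3 CPM) lay below WT (29.3 to 65.5 CPM). Flt3 (17.4 and 14.6 CPM) lay within its WT range (11.4 to 17.8 CPM). Xcr1, Clec9a and Zbtb46 did not pass the filter. On the classical list, Chil3, a secreted chitinase-like protein gene, stood at 32661 CPM in KO 1 and 40688 CPM in KO 2, against 17615 to 18760 CPM in KO 3 and KO 4 and 7298 to 12990 CPM in WT. Without KO 1 and KO 2 the log2 change of S1pr5 was -0.57 ± 0.24 and that of S1pr2 -0.03. The part of these cells in the receptor levels was not tested.

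**Figure D4:**
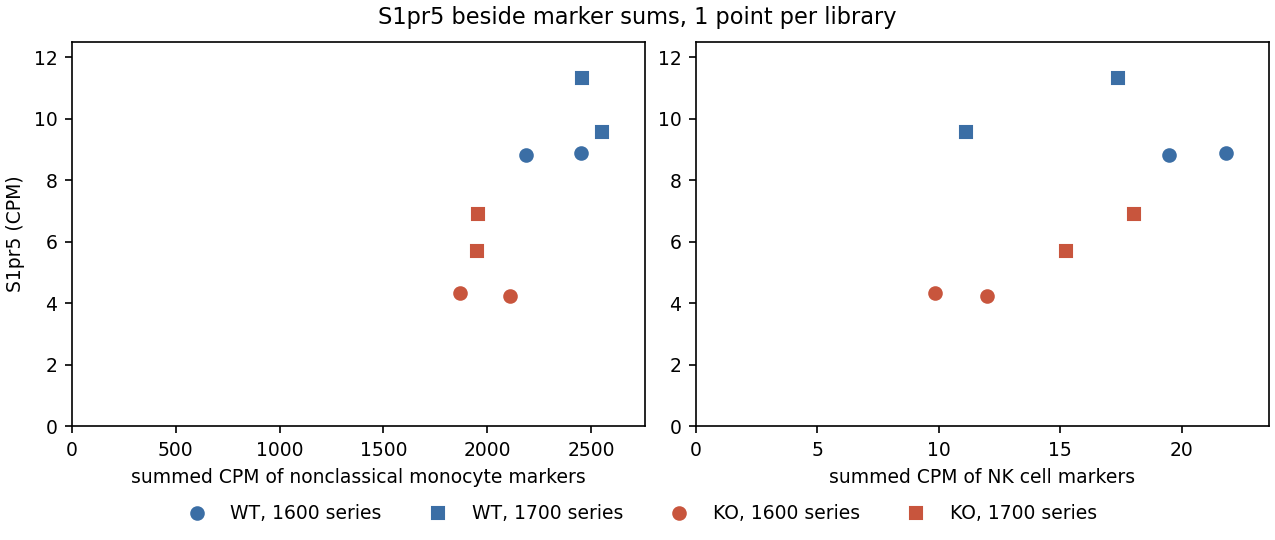
S1pr5 in CPM against the summed CPM of 14 nonclassical monocyte markers (left) and 15 NK cell markers (right), 1 point per library, WT blue, KO red, circles 1600 and squares 1700 series. The genotypes separate on both axes on the left (KO sums up to 2110, WT sums from 2187) and overlap along the horizontal axis on the right (9.83 to 18.0 in KO, 11.1 to 21.8 in WT).

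Other genes of the S1P pathway were taken from lists ordered by role, and 51 of 64 listed genes in the table passed the filter. None passed in the edgeR test over all genes, where 1.06% of tested genes were called, 0.838% lower and 0.223% higher in KO; 14 of the 51 had an unadjusted p under 0.05 in edgeR, where 20.9% of tested genes had one. DESeq2 called 6 of the 51 and 6.99% of tested genes, and limma-voom called 0 of the 51 and 0% of tested genes. Of the 51, 34 had a negative and 17 a positive log2 change, with a median of -0.10 against -0.00 over all tested genes.

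Enzymes that make and remove S1P were split in sign, with 2 of the 5 tested positive and 3 negative. Of the sphingosine kinases, Sphk2 averaged 16.1 ± 3.37 in the WT and 11.1 ± 2.96 CPM in the KO libraries (SD over 4), with an adjusted p of 0.217 by edgeR, while Sphk1 reached at most 0.158 CPM. Sgpl1, the lyase that cleaves S1P for good, stood at 116 ± 19.7 and 120 ± 16.5 CPM. Sgpp1, an intracellular S1P phosphatase, stood at 159 ± 41.5 and 127 ± 20.3 CPM. Plpp2, a lipid phosphate phosphatase, averaged 33.9 ± 6.82 in the WT and 23.1 ± 1.54 CPM in the KO libraries, with an edgeR adjusted p of 0.122. Each KO library lay below each WT library, as was so for 8.66% of all tested genes. The S1P exporters Spns2 and Mfsd2b and the carrier Apom did not pass the filter. Of transporters reported to move S1P, Abcc1 had a log2 change of -0.69 ± 0.26 (SE), Abcg2 of 0.17 ± 0.19 and Abca1 of -1.43 ± 0.72.

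Genes that supply ceramide and sphingosine stood near 0 change as a group, with 15 of 17 tested and a median log2 change of -0.00. The acid ceramidase Asah1 stood at 1068 ± 77.1 in the WT and 1079 ± 123 CPM in the KO libraries (SD over 4). The desaturase Degs1 stood at 930 ± 197 and 880 ± 94.5 CPM, and the alkaline ceramidase Acer3 at 547 ± 72.6 and 533 ± 19.1 CPM. Their edgeR adjusted p-values lay between 0.681 and 0.981.

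Among signalling partners of the receptors, Gnai2, the inhibitory G protein to which all 5 receptors couple, averaged 375 ± 73.3 in the WT and 397 ± 24.0 CPM in the KO libraries, and the GTPases Rhoa and Rac2 had log2 changes of -0.10 ± 0.11 and -0.16 ± 0.13 (SE). Of 9 tested genes in this group the median log2 change was -0.12. Gnaq, the alpha subunit that couples receptors to phospholipase C, averaged 2.48 ± 0.369 in the WT and 0.990 ± 0.251 CPM in the KO libraries (SD over 4), a log2 change of -1.24 ± 0.29 and an edgeR adjusted p of 0.0535. Among 12 genes that switch receptors off, the median was -0.08. Rgs2, an RGS protein that ends G protein signalling, stood at 1088 ± 273 CPM in WT and 1141 ± 140 CPM in KO, and Rgs19 and Rgs18 had log2 changes of 0.08 ± 0.12 and 0.27 ± 0.13. Grk3, a kinase that marks receptors for internalisation, averaged 6.07 ± 0.992 in the WT and 2.65 ± 1.02 CPM in the KO libraries, a log2 change of -1.12 ± 0.26 with an edgeR adjusted p of 0.0569. Gnaq and Grk3 are named here because an alternative called them, after their values were seen.

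For known regulators of S1P receptor genes and proteins, 7 of 7 tested members had a negative log2 change. Their median was -0.63, against -0.00 over all tested genes. In edgeR 0 passed, and 4 of the 7 had an unadjusted p under 0.05, against 20.9% of tested genes. Klf2 had 80.3, 95.2, 142 and 52.3 CPM in WT 1 to 4 and 58.3, 35.5, 79.3 and 43.9 CPM in KO 1 to 4, so that the genotypes overlapped (edgeR adjusted p = 0.262). Nr4a1, needed for nonclassical monocytes, averaged 45.1 ± 12.8 in the WT and 25.9 ± 7.08 CPM in the KO libraries (SD over 4), with an adjusted p of 0.116 by edgeR, with WT 4 among the KO values. Stat3 had a log2 change of -0.17 ± 0.15. Cd69, whose protein binds S1PR1 and removes it from the surface, was at -0.01 ± 0.30. The shared sign did not hold under each alternative. With offsets for length and GC content, Stat3 turned to 0.16 ± 0.13, while Klf2 was at -0.25 ± 0.33 and Nr4a1 at -0.53 ± 0.22 (SE). Tbx21 and Eomes, T-box factors that drive S1pr5 in NK cells, did not pass the filter, while Zeb2, which also supports S1pr5 in NK cells, averaged 28.9 ± 4.25 in the WT and 20.6 ± 1.33 CPM in the KO libraries, with an adjusted p of 0.156 by edgeR; it was picked out after its values were seen.

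**Figure D5:**
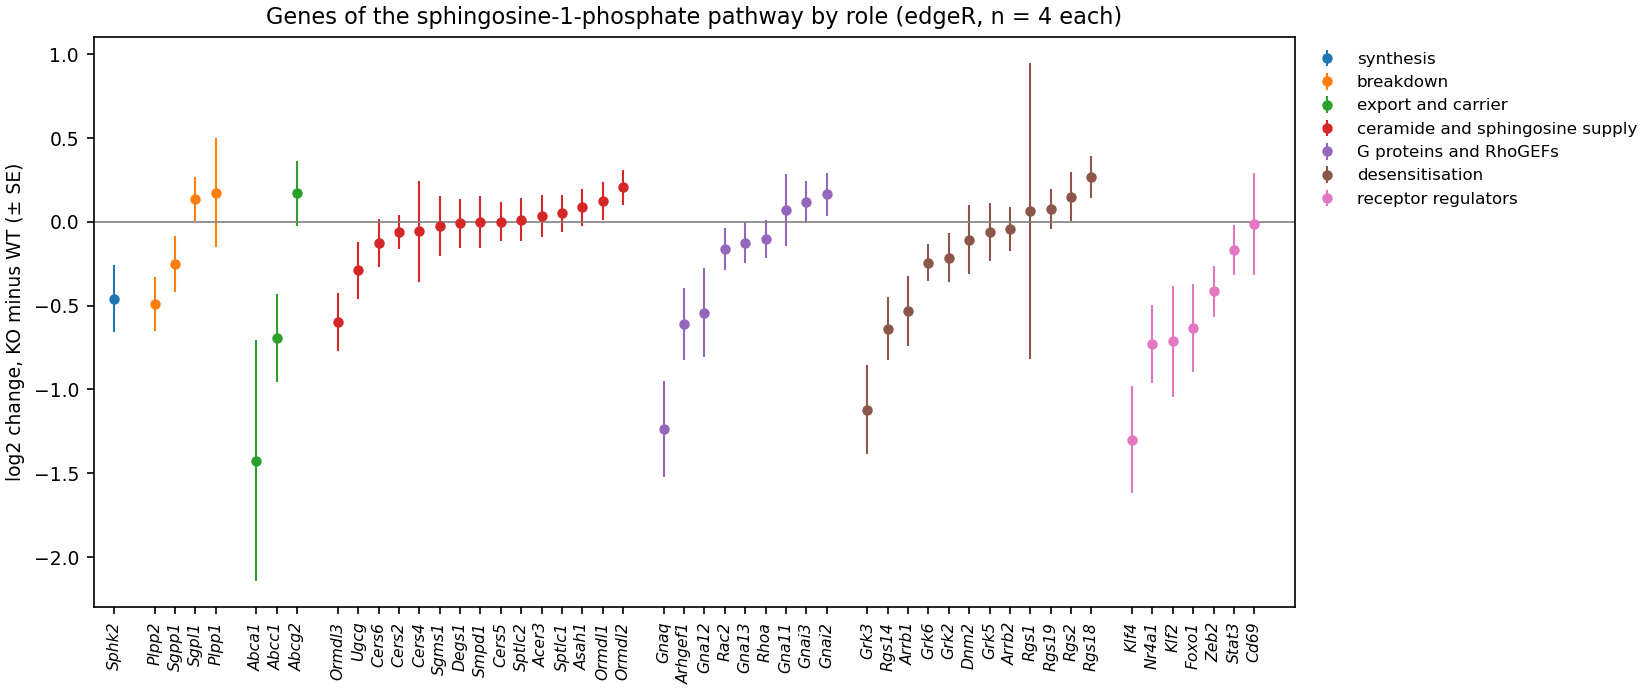
Log2 change, KO minus WT, with its SE (edgeR, 4 libraries each) for the 51 tested genes of the S1P pathway, grouped by role in colour and sorted within each group. The 7 receptor regulators all lie below 0 in this fit. The ceramide genes cluster around 0 except Ormdl3 (-0.60). None of the 51 passed an adjusted p of 0.05.

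Genes whose pattern over the 8 libraries was most like that of each receptor were named by Pearson's r of log2 CPM, as a description; libraries share genotype and number series, and depth differs between them. For S1pr5 they were Dmxl1 (r = 0.992), Ppfibp2, Vps13b, Slc12a2 and Usp36, with r from 0.978 to 0.992 and median r over 9837 genes of -0.01. Each of these 5 had a longest transcript of 4897 to 13757 bases, against 2500 bases for S1pr5 and a median of 3011 over tested genes. With each genotype's mean removed, Dmxl1, Slc12a2 and Vps13b were still among the 5 closest (r = 0.970, 0.961 and 0.946), joined by Eef1e1 and Gt(ROSA)26Sor. With offsets fitted in each library to length and GC content of the transcripts, the log2 change of S1pr5 was -0.59 ± 0.21 (SE, edgeR), that of S1pr2 0.01 and that of S1pr4 -0.04.

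Among the genes closest to S1pr2 were Dram1, Cyp27a1, a sterol hydroxylase, Pgap2 and Gmip, with r from 0.961 to 0.965, and Cyp27a1 ranked the 8 libraries in the same order as S1pr2 (Spearman's rho = 1). S1pr4 was closest to Tarbp2 (r = 0.982), followed by Ptges2, Tmbim4 and Ltb4r1, a leukotriene receptor gene (r from 0.964 to 0.967). The receptors were not close to each other: r was 0.51 between S1pr2 and S1pr5, 0.10 between S1pr4 and S1pr5 and -0.44 between S1pr2 and S1pr4 over the 8 libraries.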

How the data were processed

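Full-length cDNA was made from the RNA of sorted spleen monocytes by oligo-dT priming, template switching and PCR, per the labels' protocols. What the authors deposited is a single table with the raw count of every gene in 8 libraries (4 WT, 4 KO), grouped and numbered here by title. The submitters' processing notes name HISAT2 2.0.5, featureCounts 1.5.0-p3 and GRCm38. Strand setting and annotation release are not stated; without strand a gene and an overlapping antisense model cannot be told apart.

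Counts were tested with the quasi-likelihood test of edgeR 4.0.16 under R 4.3.3 (TMM factors, filterByExpr, robust dispersions), and p-values were adjusted by Benjamini-Hochberg over 11222 genes, with 0.05 as threshold; the script was tested on simulated data. RPKM used exon unions of GENCODE M21 (GRCm38). Pairs of libraries of 1 genotype differed beyond sampling noise (chi-square per degree of freedom 15.0 to 69.4). Alternatives were RLE factors, other filters, DESeq2 1.42.0, limma 3.58.1 (voom), covariates, offsets for length and GC content (mgcv 1.9.3) and left-out libraries; the interaction with the number series was added after the values were seen. Members and lists were chosen with earlier results of these data known. Named by rule were the receptors, the 3 genes with the highest CPM in each pathway list and any called, the 2 highest of each marker list, and the 5 genes closest to each receptor; the text prints those that carry a result, and some of the closest genes are not reported here. Ly6c2, Pou2f2, Nkg7, Gnaq, Grk3, Ormdl3, Rgs14, Klf4, Zeb2, Cd69 and the cell-type genes at or near 0 lie outside that rule and were picked after their values were seen.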

Additional observations from a re-analysis of the deposited data

Results flagged for a closer look

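Receptors, named pathway genes and marker sums gave 68 groups of 4 values, and 2 groups held a value that stood apart from the remaining 3, where chance gives about 3.4. Nr4a1 in WT 4 stood at 26.1 CPM against 49.4 to 53.1 CPM in the other WT libraries. The summed erythroid markers in KO 3 stood at 26.9 CPM against 6.12 to 9.56 CPM in the other KO libraries.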

How the results depend on the processing

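The log2 change of S1pr5 was negative under all 17 alternatives, from -0.93 (without KO 3) to -0.57 (without KO 1 and KO 2), and moved by less than the spread between libraries. That sign was largely set in advance, since the family was picked because S1pr5 was lower in every KO library. S1pr2 was negative under 16 of 17 (0.01 with the length and GC offsets) and S1pr4 under 16 of 17 (0.03 without WT 3); without KO 1 and KO 2 the latter was -1.11. The 119 genes called became 742 with no filter on low counts, 784 with DESeq2, 0 with limma-voom (2352 had an unadjusted p under 0.05), 251 with the number series as covariate, 1 with the offsets and 7 without KO 1 and KO 2; leaving out 1 library gave 0 (without WT 1, WT 3, KO 2 or KO 3) to 515 (without WT 2), and the causes were not tested. With the replicate number as a block 244 genes were called and the S1pr5 change was -0.81. The correlations of deviations between same-numbered libraries were -0.05 to 0.09. They show no clear pairing by number, but so few values cannot exclude it. Of the pathway genes 0 passed, against 6 with no filter (Ormdl3, Gnaq, Grk3, Rgs14, Klf4 and Nr4a1, all lower in KO), the same 6 with DESeq2, 2 with the number series, 2 with the replicate block and 0 to 3 with 1 library left out (3 without WT 2). S1pr5 over S1pr2 reversed to -0.25 with the longest transcript as length and to -0.18 in the 4 KO libraries, and ranged from -0.040 (without WT replicate 3) to 0.15 with 1 library left out. In the 4 WT libraries alone S1pr1 over S1pr3 reversed to -0.26, S1pr2 over S1pr4 was 1.75 and S1pr4 over S1pr1 5.79; in the 4 KO libraries alone the last pairs were 1.77 and 4.21. With 4 libraries the exact test cannot pass, which covers the lost calls but not the changes of sign. Of 322 values for the 19 pathway genes named by rule, 320 kept their side of the threshold, and 2, both of Nr4a1, passed. None of the 19 passed in the main fit, so where an alternative called 0 genes that outcome was fixed. The count does not follow the sign, which turned with the length and GC offsets for Stat3 (0.16), Asah1 (-0.16), Rgs2 (-0.08) and Rgs18 (-0.05). Gnaq, Grk3, Ormdl3, Rgs14 and Klf4, outside these 19, each passed with no filter and with DESeq2, and Gnaq, Grk3 and Klf4 under further alternatives. Depth limits S1pr1 and S1pr3, with 11 and 7 counts in all, and leaves S1pr4 with 20 to 70 counts a library.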
